A study of Mus musculus with 3 samples.

Results

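RNA-seq gave the transcript levels of the nuclear genes for subunits of the mitochondrial respiratory chain in scratched cultures of primary mouse fibroblasts, 5 h after addition of soluble micrograft (MG) together with PD0325901. The genes were chosen by name: rows starting with Nduf followed by a, b, c, s or v and a digit, Sdha to Sdhd, Uqcr, Cox4 to Cox8, and Atp5, without the assembly factors named Ndufaf and the pseudogenes named "-ps". They came to 84 of the 43472 rows of the table, namely 37 of complex I, 4 of complex II, 8 of complex III, 18 of complex IV and 17 of complex V, and they lay on 19 chromosomes. Of these, 79 reached 10 normalized counts in all 3 libraries and are called detected. The other 5 were isoforms of complex IV: Cox6a2 had 0, 3 and 2 reads in replicates 1, 2 and 3, Cox7a1 had 7, 14 and 4, and Cox7b2, Cox8b and Cox8c had 0 reads in each.

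The fibroblasts came from the tail tips of C57BL/6 mice and were scratched in culture, which models a skin wound in a single cell type. The authors describe the fibroblasts as adult, but the exact age of the mice is not stated in the sources used here. Whether the cultures came from separate animals is not stated either, so the spread between replicates may be partly technical. MG is a filtered, cell-free extract of mouse skin, and PD0325901 blocks the kinase MEK upstream of ERK. The 3 libraries analysed here are replicates 1, 2 and 3 of this 1 condition. No other condition was analysed here, so the comparisons below are between libraries treated alike and no test between conditions was made.

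The values are normalized counts, that is, reads on a gene divided by a size factor for the library. The libraries held 22540518, 27037783 and 17244505 reads on genes in replicates 1, 2 and 3, and the respiratory chain genes took 1.05%, 0.791% and 0.975% of them. A count of 0 reads allows up to 3 reads, which equal 2.61, 2.11 and 3.56 normalized counts, and these limits and all intervals below cover counting error only. The fibroblast label held in the markers, with 8 of 8 fibroblast genes detected. Of the other cell types, the leukocyte markers (1 of 5 detected) summed to 128, 71.2 and 664 normalized counts, the keratinocyte markers (1 of 5, with Krt1 and Krt15 at 0 reads) to 81.6, 39.5 and 34.4, and the endothelial markers (0 of 4) to 20.8, 190 and 5.93. Among 5 adipocyte markers only Fabp4 was detected, with 2185, 376 and 422 normalized counts, and Ucp1 had no read. Of 7 skeletal muscle markers only Acta1 and Tnnt3 were detected, and the list summed to 2452, 7298 and 5605, nearly all from Acta1. The pericyte markers (4 of 7, with Higd1b at 0 reads) summed to 8033, 9872 and 15294. The part of these markers in the differences between libraries described below was not tested. In such bulk samples fewer cells of a type and less RNA per cell cannot be told apart.

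The respiratory chain passes electrons from NADH (through complex I) and succinate (through complex II) by way of complex III and cytochrome c to oxygen at complex IV. Complexes I, III and IV pump protons across the inner mitochondrial membrane, and complex V, the ATP synthase, uses that gradient to make ATP. Most subunits are encoded in the nucleus and imported, while the mitochondrial genome encodes the catalytic core of complex IV, cytochrome b, the membrane core of complex I and a pair of ATP synthase subunits. Expression of the nuclear subunits is known to be coordinated by the factors NRF1, GABPA, YY1 and the estrogen-related receptors, acting with PGC-1 coactivators.

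The promoters of the genes were read first, because these factors are the textbook route by which the group is expressed together. RefSeq promoter windows on GRCm38.p6, from 250 bases before to 50 bases after each annotated start, were found for 69 of the 84 genes. An NRF1 core (GCGCANGCG, with N any base, on either strand) was present for 20 of 69, or 29.0%, against 15.2% of 9579 other genes with a mean of at least 10 normalized counts and a promoter in the table. The GABPA/ETS core CCGGAAGT was present for 5 of 69 (7.25% against 9.0%), the YY1 core AAGATGGCG for 8 (11.6% against 3.54%), the estrogen-related receptor core TCAAGGTCA for 2 (2.90% against 0.292%) and TATAAA for 7 (10.1% against 8.86%). Any of the NRF1, GABPA/ETS or YY1 cores was present for 30 of 69 (43.5% against 25.1%). The 69 were not limited by level, and of the 7 with TATAAA, Cox7b2 and Cox8b had 0 reads. Detected genes with TATAAA numbered 5, beside 61 without. These are matches of letters, and a window without a match says nothing of the factor. The NRF1 core can read the same on both strands, so overlapping matches in a promoter were counted as 1 gene. The stretches of 60 bases below lie upstream of the RefSeq start and outside all annotated exons, are written 5′ to 3′ on the strand of the gene, and have the core in capitals. Ndufs5, Cox6a1 and Uqcr11 are shown because they were among the genes that differed most between libraries. Ndufb4 and Atp5h are shown because they carry an NRF1 core, as Ndufs5 and Cox6a1 do, and differed less. They too passed the 1.5-fold limit, with log2 ratios of -0.91 and -0.60 for replicate 2 over 1. Outside these stretches Uqcr11 also has an NRF1 core and Atp5h a GABPA/ETS core, at -5 and -39 relative to the start. The stretches are chr4:123718251-123718310 for Ndufs5, chr5:115349042-115349101 for Cox6a1, chr10:80406854-80406913 for Uqcr11, chr16:37654526-37654585 for Ndufb4 and chr11:115420027-115420086 for Atp5h, all on the minus strand.
Ndufs5, NRF1 core: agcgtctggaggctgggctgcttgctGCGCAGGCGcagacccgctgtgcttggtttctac
Cox6a1, NRF1 core: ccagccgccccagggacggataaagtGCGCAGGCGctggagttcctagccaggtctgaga
Uqcr11, GABPA/ETS core: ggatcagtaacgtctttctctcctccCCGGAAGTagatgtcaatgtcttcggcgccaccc
Ndufb4, NRF1 core: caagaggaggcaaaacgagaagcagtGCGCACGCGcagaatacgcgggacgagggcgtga
Atp5h, NRF1 core: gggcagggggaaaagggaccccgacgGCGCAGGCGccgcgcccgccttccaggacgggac
The core in capitals began 98 bases before the start in Ndufs5, 117 in Cox6a1, 66 in Uqcr11, 191 in Ndufb4 and 141 in Atp5h. Among detected genes with a promoter in the table, the median level was 2144 normalized counts per kb of transcript for 20 with an NRF1 core and 1948 for 46 without. The median log2 ratio of replicate 2 over replicate 1 was -0.60 with the core and -0.70 without. For the GABPA/ETS motif it was -1.09 for 5 genes with the motif and -0.67 for 61 without, at median levels of 5559 and 1948 per kb. The 5 were Ndufs3, Atp5h, Uqcrh, Cox8a and Uqcr11, with transcripts of 1046, 642, 474, 550 and 445 bases. After the length subtraction described below their ratios were 0.01, 0.03, -0.39, -0.46 and -0.58. The part of the motif in these ratios was not tested.

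The highest single levels were in complex IV and the ATP synthase. To compare genes, normalized counts were divided by the median length of the coding transcripts of the gene in kb. The median level per kb over detected genes was 1630 for complex I, 1361 for complex II, 3312 for complex III, 3858 for complex IV and 3090 for complex V. The highest level was that of Cox6b1, 11482 ± 2974 on this scale (SD, n = 3), and the lowest among detected genes was that of Atp5s, 64.8 ± 21.9. Cox6b1 encodes the subunit of complex IV that faces the intermembrane space, and Atp5s encodes coupling factor B, which is not a standing subunit of the ATP synthase.

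Summed over its genes, complex I was at 64929, 43281 and 61679 normalized counts in replicates 1, 2 and 3, and complex III was at 21662, 14790 and 20203. Complex IV was at 48518, 26492 and 38966. In these 3 complexes the coefficient of variation was 20.6%, 19.2% and 29.1%. Replicate 2 was the lowest library in every complex. Complex II was at 10226, 9551 and 10606 and complex V at 60033, 56527 and 67884, with a coefficient of variation of 5.28% and 9.46%. The sums therefore spread differently between libraries, with the maximum 1.11-fold the minimum in complex II and 1.83-fold in complex IV. The median transcript of the detected genes was 1612 bases in complex II and 645 in complex IV. The median log2 ratio of replicate 2 over 1 was -0.67, -0.30, -0.92, -0.77 and -0.43 in complexes I to V. After the length subtraction described below it was -0.09, -0.02, -0.34, -0.22 and 0.08. Replicate 2 was the lowest for 13 of 17 genes of complex V, but not for Atp5b and Atp5a1, its most abundant genes. The part of length in these sums was not tested. The sums follow the gene names. Without Ndufa4 and Ndufa4l2 the mean sum of complex I was 50194 against 56630. Without Cox7a2l that of complex IV was 34676 against 37992. The whole set summed to 205367, 150641 and 199338 normalized counts, or 185115 ± 30007 (SD, n = 3).

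**Figure D1:**
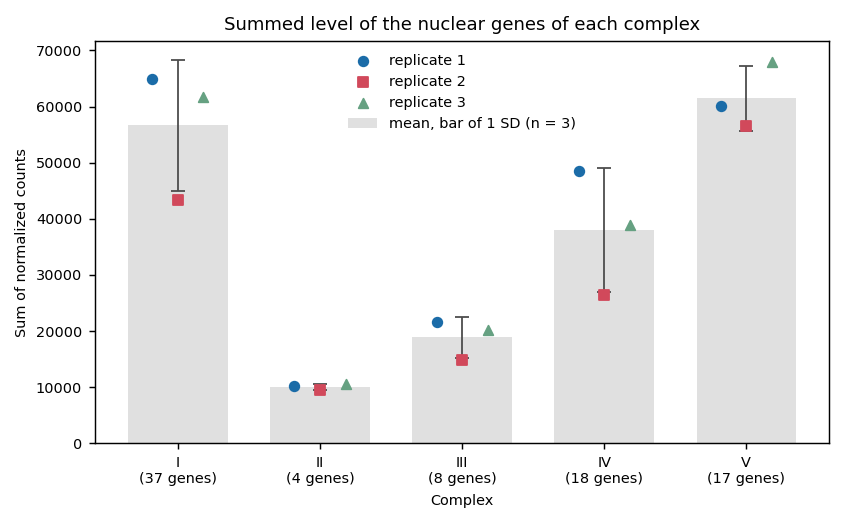
Sum of normalized counts (y axis, from 0) over the nuclear genes of each complex (x axis) in the 3 libraries; grey bars are means with 1 SD. Replicate 2 is lowest in all 5 complexes, for example at 26492 against 48518 in replicate 1 for complex IV and at 9551 against 10226 for complex II.

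Because the libraries are of 1 condition, a gene was called different between a pair of libraries where log2(normalized count + 1) differed by more than log2 of 1.5, a limit on size with no replicate behind it. Replicate 2 was lower than replicate 1 for 46 of 79 detected genes, or 58.2%, where the same limit was passed by 19.5% of all 13154 genes with a mean of at least 10. In the opposite direction 3 of 79 passed, against 19.6% of all genes. Replicate 2 was lower than replicate 3 for 28 of 79 (35.4%, against 15.7% of all genes) and higher for 2, against 17.9%. Scaled to equal library totals, 16 were lower in replicate 2 than in replicate 3. Replicates 1 and 3 were closer for these genes: replicate 3 was lower for 4 of 79, against 12.8% of all genes, and higher for 1, against 9.89%. The highest library was more than 1.5-fold above the lowest for 52 of 79 (65.8%), against 52.0% of all genes. That count was 5 without replicate 2 and 30 without replicate 1. The median log2 ratio over the 79 genes was -0.67 for replicate 2 over 1, -0.48 for 2 over 3 and -0.18 for 3 over 1, beside 0.03, 0.01 and 0.00 over all genes. Replicate 2 was the lowest library for 63 of 79, replicate 1 for 12 and replicate 3 for 4, whereas over all genes replicate 2 was the lowest for 37.5%. The median SD of log2 values between the libraries was 0.38 over the genes and 0.32 over all genes.

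**Figure D2:**
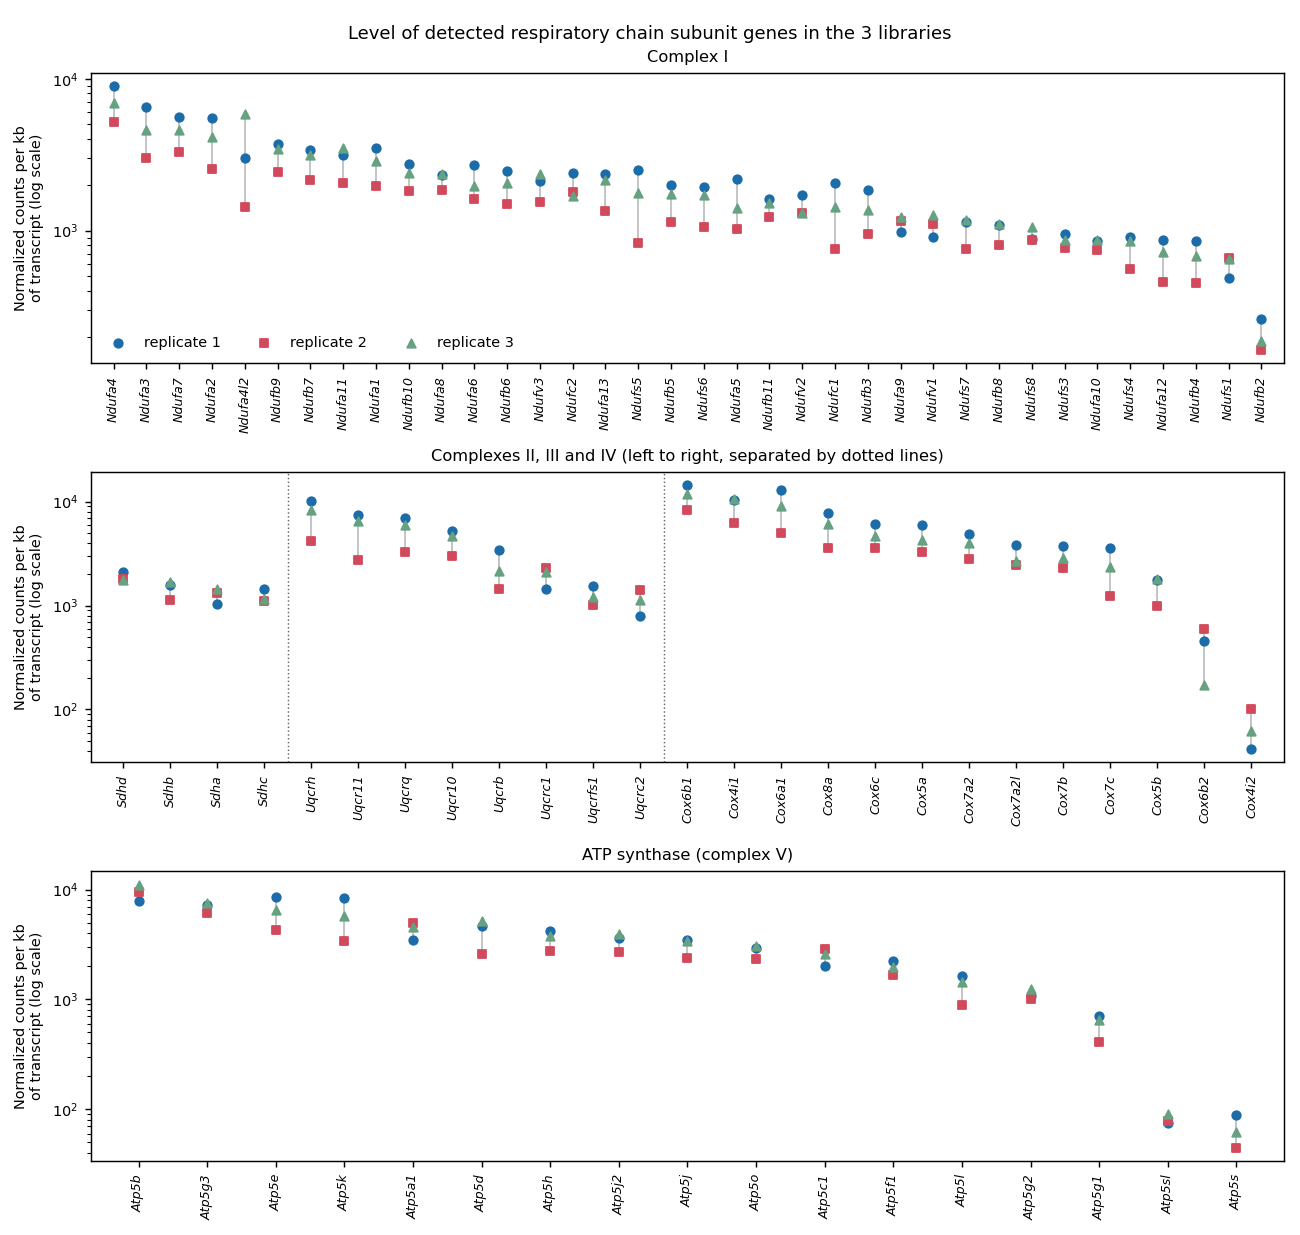
Normalized counts per kb of transcript (log scale) of the detected genes, less 1 that is not shown (x axis, ordered by mean within each complex), with a symbol for each of the 3 libraries and a grey line over their range. Replicate 2 (squares) is the lowest for 63 genes, and the exceptions include Uqcrc1, Uqcrc2, Cox4i2, Cox6b2 and Atp5a1.

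Levels of single genes are given below as normalized counts in replicates 1, 2 and 3, in that order. In complex I, the NADH dehydrogenase, the 7 conserved core subunits of the matrix arm carry the flavin and the iron-sulfur clusters and form the quinone pocket. None of these 7 was called between replicates 1 and 2, where 19.5% of all genes were lower in replicate 2 and 19.6% higher. Their median log2 ratio of replicate 2 over 1 was -0.02. Ndufs1, which holds several of the iron-sulfur clusters, was at 1282, 1723 and 1697 normalized counts, and Ndufv1, which binds NADH and flavin, was at 1392, 1682 and 1928. Replicate 1 was the lowest library for this pair. Ndufv2 was at 2249, 1719 and 1713. Ndufs3 was at 995, 810 and 908, and Ndufs8 at 867, 853 and 1042. Only Ndufs7, next to the quinone site, passed 1.5-fold in any pair, with 987, 659 and 1018 normalized counts and a log2 ratio of -0.63 for replicate 2 over 3.

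The accessory subunits of complex I surround the core and are needed for its assembly and stability. With Ndufa4 and Ndufa4l2, they made up all 22 genes, of 37 in the complex, called lower in replicate 2 than in replicate 1. Of all genes 19.5% passed that limit. Ndufs5, an accessory subunit on the intermembrane-space side (chr4:123712710-123718202, minus strand, GENCODE M21), showed the widest gap between replicates 1 and 2, with 1510, 499 and 1066 normalized counts. Replicate 1 was 3.03-fold above replicate 2 (95% interval of the read counts 2.77 to 3.31). Ndufc1, in the membrane arm, was at 1621, 592 and 1112, a 2.74-fold difference between replicates 1 and 2 (2.52 to 2.98). In both genes the 3 libraries stood in the order of replicate 1, 3 and 2. Of the subunits that attach to the matrix arm, Ndufa2 was at 3172, 1460 and 2352, Ndufa5 at 1304, 612 and 842, Ndufa6 at 1040, 617 and 757, and Ndufa7 at 2964, 1730 and 2437. Ndufa12 was at 724, 385 and 602, Ndufs4 at 1552, 951 and 1444, and Ndufs6 at 1097, 598 and 970. Ndufs4 and Ndufs6 are known for mutations that cause complex I deficiency, and in each of these 7 genes replicate 2 was the lowest.

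Of the membrane-arm subunits, Ndufa1, on the X chromosome, was at 1467, 819 and 1208 normalized counts and Ndufa3 at 2823, 1311 and 1988. Ndufa11 was at 1708, 1124 and 1902, and Ndufa13, also known as GRIM-19, at 2942, 1683 and 2691. The Ndufb genes, whose products sit in the distal part of the membrane arm, ran from 205 to 3184 normalized counts per kb. Ndufb2 was at 630, 396 and 456, Ndufb3 at 1414, 725 and 1047, and Ndufb4 at 827, 440 and 666. All 3 were called in the direction of the group, with replicate 2 the lowest. Ndufb5 was at 1250, 716 and 1090, Ndufb6 at 1408, 853 and 1170, Ndufb7 at 2127, 1333 and 1960 and Ndufb9 at 2607, 1703 and 2414. Ndufb8, Ndufb10 and Ndufb11 stayed inside the limit in every pair, although Ndufb10 came to a log2 ratio of -0.58 for replicate 2 over 1. Ndufv3 was at 1364, 1003 and 1522, and passed 1.5-fold for replicate 2 against 3 alone. Ndufa8, Ndufa9, Ndufa10 and Ndufc2 also stayed inside the limit, with the highest library 1.16-fold above the lowest for Ndufa10 and 1.42-fold for Ndufc2.

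By level per kb, the highest of complex I were Ndufa4, Ndufa3 and Ndufa7, which reached 6988 ± 1863, 4712 ± 1750 and 4501 ± 1173 (SD, n = 3) on that scale. Ndufa4 was the highest of these in each library, and the order of Ndufa3 and Ndufa7 differed between libraries. The lowest were Ndufs1, with 597 ± 94.4, and Ndufb2, with 205 ± 50.4. Ndufa4 was at 4096, 2384 and 3163 normalized counts. It carries the name of complex I, but its product is now regarded as belonging to complex IV. The order depended on the length used: dividing by all annotated exons of a gene put Ndufa2, Ndufa4l2 and Ndufa1 at ranks 1, 2 and 3, and Ndufb7 moved from rank 7 to rank 32.

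Complex II, succinate dehydrogenase, is shared by the respiratory chain and the citric acid cycle. None of its 4 genes was called in any pair of libraries, where 52.0% of all genes passed the limit in some pair. Sdha, the flavoprotein that oxidizes succinate, was at 2978, 3831 and 4180 normalized counts, with replicate 1 the lowest. Sdhb, the iron-sulfur subunit, was at 1779, 1296 and 1923. The membrane anchors Sdhc and Sdhd were at 2900, 2186 and 2315 and at 2568, 2237 and 2188. Levels per kb lay between 1238 ± 191 for Sdhc and 1894 ± 168 for Sdhd, a narrower range than in any other complex. Divided by all annotated exons they lay between 744 ± 146 for Sdhb and 1894 ± 168 for Sdhd.

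In complex III, the cytochrome bc1 complex, genes lay on both sides. Both core proteins were higher in replicate 2 than in replicate 1. Uqcrc1 (chr9:108936633-108949623, plus strand) was at 2379, 3797 and 3449 normalized counts, and replicate 2 was 1.60-fold above replicate 1 (1.52 to 1.67). Uqcrc2 (chr7:120635176-120659524, plus strand) was at 1494, 2656 and 2161, a 1.78-fold difference (1.68 to 1.88). For both, replicate 3 lay between the others. Uqcrfs1, the Rieske iron-sulfur protein that passes electrons to cytochrome c1, was at 2078, 1380 and 1646, just past the limit with a log2 ratio of -0.59. The 5 small subunits lay the other way, with replicate 1 more than 1.5-fold above replicate 2 in each. Uqcr11 (chr10:80402997-80406830) was at 3340, 1217 and 2865, 2.74-fold apart (2.59 to 2.91). Uqcrh, the hinge protein that sits beside cytochrome c1, was at 4822, 1998 and 3894 and Uqcrq at 3470, 1662 and 3018. Uqcrb was at 1836, 770 and 1145 and Uqcr10 at 2244, 1311 and 2026. Replicate 2 was the lowest library for all 5. Per kb, Uqcrh was the highest with 7534 ± 3037, then Uqcr11 with 5559 ± 2504 and Uqcrq with 5390 ± 1867. Uqcrh was the highest of these in each library, and the order of Uqcr11 and Uqcrq differed between libraries. Uqcrfs1 with 1248 ± 259 and Uqcrc2 with 1109 ± 308 were the lowest. Dividing by all annotated exons put Uqcr11, Uqcr10 and Uqcrh at ranks 1, 2 and 3 and Uqcrc1 last.

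Complex IV, cytochrome c oxidase, had the widest gap between libraries in its summed normalized counts, and each of its 11 abundant nuclear genes was lower in replicate 2 than in replicate 1. Most of the products encase the catalytic core and tune its activity. Cox7c (chr13:86044816-86046904) was at 1914, 671 and 1274 normalized counts, with replicate 1 2.85-fold above replicate 2 (2.64 to 3.08). Cox6a1 (chr5:115345642-115348981) was at 7326, 2837 and 5158, a 2.58-fold difference (2.49 to 2.68), and Cox8a was at 4238, 1988 and 3316. Cox4i1, the subunit through which ATP is known to inhibit the enzyme, was at 7878, 4710 and 8027. Cox5a was at 3839, 2118 and 2724, and Cox5b, which binds zinc, at 1322, 729 and 1351. Cox6b1 was at 6943, 4065 and 5732 and Cox6c at 3692, 2160 and 2806. Replicate 2 was the lowest for each of these. Cox7a2 was at 3189, 1831 and 2608, Cox7b at 3710, 2308 and 2861, and Cox7a2l, a factor that joins complexes III and IV into supercomplexes, at 4233, 2732 and 2982. Per kb, Cox6b1, Cox4i1 and Cox6a1 were the highest, with 11482 ± 2974, 9101 ± 2481 and 8944 ± 3932 normalized counts per kb. Cox6b1 was the highest of these in each library, and the order of Cox4i1 and Cox6a1 differed between libraries. Dividing by all annotated exons put Cox6b1, Cox6a1 and Cox8a at ranks 1, 2 and 3 and Cox4i1 at rank 4.

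Complex IV also has isoforms known from single tissues. Cox4i2, the form known from lung and from cells short of oxygen, was at 30.4, 73.3 and 45.0 normalized counts, from 35, 104 and 38 reads, and replicate 2 was 2.41-fold above replicate 1 (1.63 to 3.65). Cox6b2, known from testis, was at 197, 256 and 74.7, and replicate 2 was 3.43-fold above replicate 3 (2.62 to 4.56). Among detected genes of the set these were the 2 that were higher in replicate 2 than in replicate 3 by more than 1.5-fold. Cox7a1, a heart and muscle form, was at 6.08, 9.86 and 4.74, and Cox6a2, another muscle form, at 0, 2.11 and 2.37, at or under the limit that a count of 0 allows in each library. Of Cox8b, Cox8c and Cox7b2 no read was seen.

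In the ATP synthase genes also lay on both sides. The catalytic head, F1, is built of Atp5a1 and Atp5b, with a central stalk of Atp5c1, Atp5d and Atp5e. Atp5b, the catalytic beta subunit and the most abundant gene of the set by normalized counts, was at 15027, 18297 and 21334. Atp5a1, the alpha subunit, was at 8993, 12684 and 11677, and Atp5c1, the gamma subunit, at 2330, 3345 and 3002. For these 3 replicate 1 was the lowest library, and none passed 1.5-fold. The small stalk subunits lay the other way: Atp5d (chr10:80138632-80145818) was at 4376, 2389 and 4787, with replicate 3 2.00-fold above replicate 2 (1.91 to 2.10), and Atp5e was at 3604, 1810 and 2734. Of the peripheral stalk, which holds the head still, Atp5h was at 2685, 1770 and 2414, and Atp5f1, Atp5j and Atp5o were called in no pair. Of the other membrane subunits, Atp5k was at 2714, 1085 and 1850, with replicate 1 2.50-fold above replicate 2 (2.35 to 2.66). Atp5l was at 892, 485 and 778, and Atp5j2 was called in no pair. Atp5s was at 135, 68.3 and 96.0, and Atp5sl, which is now named Dmac2 and acts in complex I assembly, at 146, 151 and 175. Per kb, Atp5b, Atp5g3 and Atp5e were the highest, with 9509 ± 1646, 6988 ± 772 and 6452 ± 2131, and Atp5sl with 81.7 ± 8.22 and Atp5s with 64.8 ± 21.9 the lowest. Dividing by all annotated exons put Atp5b, Atp5a1 and Atp5k at ranks 1, 2 and 3 and Atp5e at rank 7.

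The paralogs were compared by their shares of the family level per kb. The c subunit, which forms the rotating ring of the ATP synthase, is made as the same mature protein from 3 genes. Atp5g3 was at 5255, 4383 and 5413 normalized counts, Atp5g2 at 636, 586 and 731 and Atp5g1 at 1876, 1090 and 1726. Atp5g3 took 80.5% ± 0.685 of the family level per kb (SD, n = 3), Atp5g2 12.8% ± 0.774 and Atp5g1 6.66% ± 1.15. The order of Atp5g2 and Atp5g1 turned without division by length, with 9.05% and 21.4%. Cox7a2 took 55.9% ± 3.34 of its family and Cox7a2l 43.9% ± 3.21, while the muscle form Cox7a1 took 0.249% ± 0.153. Without division by length the order of this pair turned, with 43.2% for Cox7a2 and 56.7% for Cox7a2l. Cox4i1 took 99.1% ± 0.639 of its family and Cox6b1 96.3% ± 2.63 of its own, and Cox6b2 took 3.07%, 6.59% and 1.43% in replicates 1, 2 and 3.

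Ndufa4l2, a paralog of Ndufa4 known to be induced when oxygen is short, had the largest range of all detected genes of the set. It was at 2824, 1335 and 5504 normalized counts (chr10:127514967-127517154, plus strand), and replicate 3 was 4.12-fold above replicate 2 (3.91 to 4.35) and 1.95-fold above replicate 1 (1.86 to 2.04). Ndufa4 itself, at 4096, 2384 and 3163, was highest in replicate 1. The share of Ndufa4l2 in the family was therefore 25.3%, 21.6% and 46.1% in replicates 1, 2 and 3, and 31.0% ± 13.2 in the mean. The mean depended on the length used, with 46.7% without division by length and 52.2% with all annotated exons. Of 10 other genes known to respond to low oxygen, 3 were lower in replicate 2 than in replicate 1 (19.5% of all genes) and none was higher (19.6%). For replicate 2 against 3, 4 were lower (15.7%) and none higher (17.9%), and 2 were higher in replicate 3 than in replicate 1 (9.89%) and none lower (12.8%). Car9 was at 109, 64.1 and 191 and Higd1a at 2983, 1492 and 2725. An exon of Ndufa4l2 shares bases with Shmt2 on the opposite strand.

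**Figure D3:**
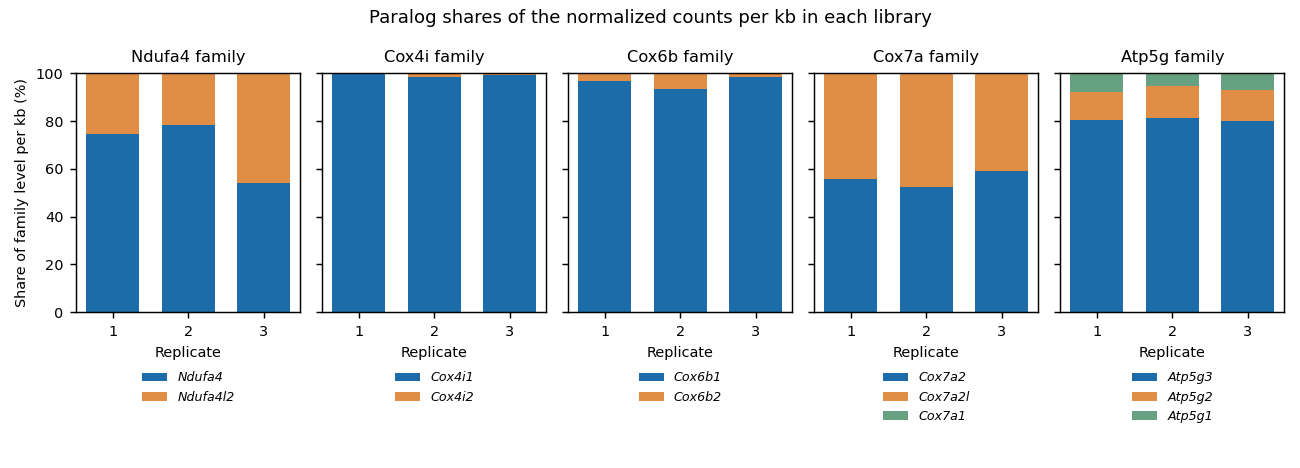
Share of each paralog in the normalized counts per kb of its family (y axis, percent, stacked to 100) in replicates 1, 2 and 3 for 5 families. Ndufa4l2 takes 21.6% to 46.1% of its family, while Atp5g3 stays between 79.9% and 81.3%.

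The difference between the libraries followed transcript length, both in the respiratory chain genes and in all others. The median coding transcript was 747 bases long for the genes of the set and 2746 bases for all genes tested. Among 12171 other protein-coding genes the log2 ratio of replicate 2 over replicate 1 correlated with log2 length with a Pearson r of 0.30 and a Spearman rho of 0.39. Over the 79 genes of the set r was 0.56 and rho 0.58. These correlations are over genes of the same pair of libraries and are given as a description. In other genes the median log2 ratio of replicate 2 over 1 went from -0.88 for transcripts of up to 500 bases through -0.31 between 1000 and 1500 bases to 0.40 over 5000 bases. In the same classes up to 3000 bases the genes of the set had medians of -0.84, -0.78, -0.81, -0.43, 0.03 and 0.08, and the other genes -0.88, -0.64, -0.49, -0.31, -0.14 and 0.05. For replicate 2 over 3 the gradient was shallower, with r of 0.20 and rho of 0.28 in other genes.

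Split at 1000 bases, the 52 genes with short transcripts summed to 130268, 73470 and 114769 normalized counts, and replicate 2 was the lowest for 49 of them. The 16 genes with transcripts over 1500 bases, among them Atp5a1, Atp5b, Ndufs1, Sdha, Uqcrc1 and Uqcrc2, summed to 49360, 56962 and 61423. Replicate 1 was the lowest for 9 of these 16 and replicate 2 for 7. Their median log2 ratio of replicate 2 over 1 was 0.03. By the 1.5-fold limit 4 were lower in replicate 2 (19.5% of all genes) and 2 higher (19.6%). Replicate 2 was lower than replicate 1 for 38 of the 52 short genes (73.1%), where 49.8% of the 924 coding genes with short transcripts passed the same limit. For replicate 2 against 3 it was 25 of 52 (48.1% against 29.0%), and replicate 3 was lower than replicate 1 for 4 of 52, against 18.0%. Over all those short genes replicate 2 was the lowest library for 74.0%. Length moved with the role of the subunits, since most core subunits of complexes I and III, Sdha and the large F1 subunits have transcripts over 1000 bases. The parts of role and of length in the difference cannot be told apart for most genes here.

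When the median of the other genes in the same class of length was subtracted, the difference over the set became small. Its median was then -0.12 for replicate 2 over 1, -0.12 for 2 over 3 and 0.05 for 3 over 1. Replicate 2 remained lower than replicate 1 for 9 of 79 (11.4%), against 16.2% of 12250 genes, and was higher for 5, against 15.5%. It was lower than replicate 3 for 6 of 79 (7.59%, against 14.1%) and higher for 2, against 16.0%. Replicate 3 was lower than replicate 1 for 1 gene, against 11.6%, and higher for 2, against 8.32%. In each comparison the share of the set was thus below that of all genes. This subtraction, and the split at 1000 bases, were chosen after the data were seen. What makes the ratio move with length was not tested.

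The genes that still stood apart after the subtraction were few. For replicate 2 over 1 the log2 ratios were -0.97 for Ndufc1, -0.96 for Ndufs5, -0.87 for Cox7c, -0.84 for Atp5s and -0.83 for Atp5g1. They were -0.73 for Cox6a1, -0.72 for Ndufb2, -0.62 for Uqcrb and -0.59 for Ndufa4l2. On the other side were Cox4i2 with 1.88, Cox6b2 with 1.25, Uqcrc2 with 0.97, Atp5c1 with 0.83 and Uqcrc1 with 0.81. For replicate 2 over 3, Ndufa4l2 was at -1.75, Uqcr11 at -0.74, Ndufs5 and Atp5d at -0.71, Atp5g1 at -0.68 and Ndufc1 at -0.61, and Cox6b2 was at 2.26 and Cox4i2 at 1.08. Ndufs5, Ndufc1 and Atp5g1 were the genes called lower in replicate 2 in both pairs besides Ndufa4l2. The calls of Atp5g1 and Ndufb2 rest on median transcript lengths of 2675 and 2413 bases. In that class the median of other genes for replicate 2 over 1 was 0.05. Before the subtraction their ratios were -0.78 and -0.67, beside a median of -0.64 in other genes of 500 to 750 bases. The Atp5g1 paralogs Atp5g2 and Atp5g3 have lengths of 586 and 718 bases.

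**Figure D4:**
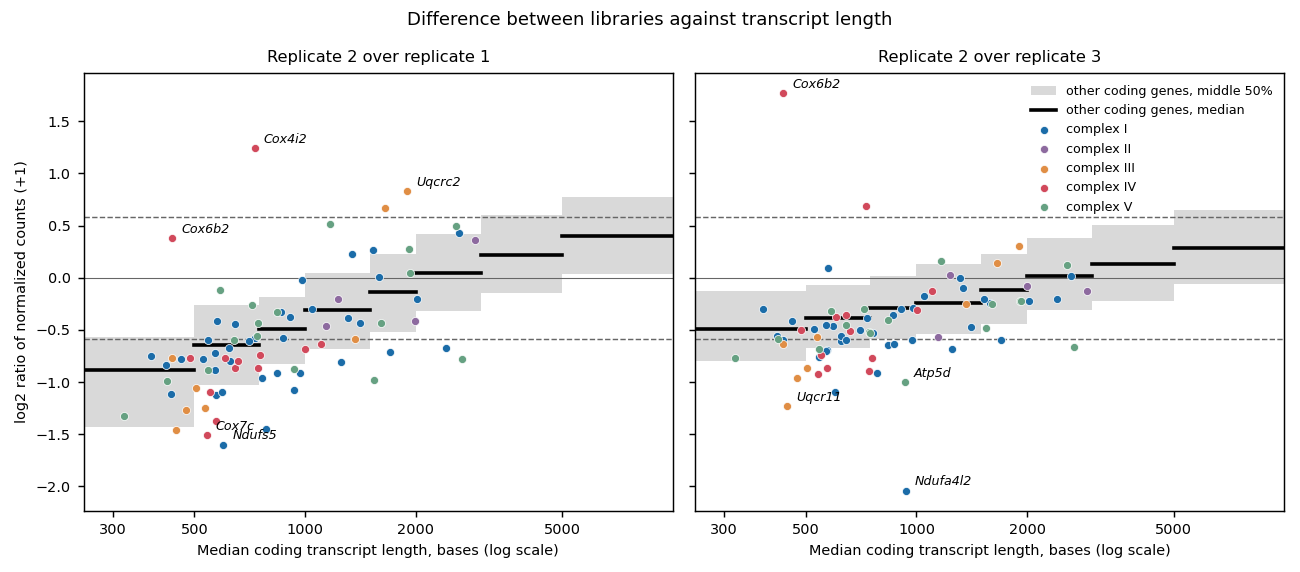
log2 ratio of normalized counts (+1) of replicate 2 over replicate 1 (left) and over replicate 3 (right) against the median coding transcript length in bases (log scale), with the detected genes coloured by complex, the median (black) and middle 50% (grey) of other coding genes in 8 classes of length, and the 1.5-fold limits dashed. Most genes lie along the grey band, which runs from a median of -0.88 to 0.40 on the left, while Cox4i2, Uqcrc2 and Cox6b2 lie above it and Ndufs5 and Cox7c below.

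The mitochondrial genome encodes 13 further subunits, which pair with these nuclear subunits in complexes I, III, IV and V. mt-Cytb, the cytochrome b of complex III, was at 77677, 42901 and 37189 normalized counts, and mt-Co1, the catalytic subunit of complex IV, at 56408, 41516 and 28432. mt-Nd1 was at 46621, 28813 and 20092, with replicate 3 the lowest in these 3 genes, while mt-Nd6 was at 955, 264 and 348, with replicate 2 the lowest. Of 11 mitochondrial genes with a mean of at least 10, replicate 3 was lower than replicate 1 for all 11, against 12.8% of all genes, and replicate 2 was lower than replicate 1 for 7, against 19.5%. The 11 include 3 of the genes with few reads described next. Replicate 2 was higher than replicate 3 for 4 of them, against 17.9% of all genes, and lower for none, against 15.7%. Of these 4, mt-Co3 and mt-Atp6 rest on few reads, and the others were mt-Nd2, at 18089, 14675 and 8620, and mt-Atp8, at 890, 688 and 344.

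Reads on 5 mitochondrial genes were almost absent. mt-Co2 had 17, 4 and 3 reads, mt-Co3 had 30, 4 and 1, mt-Atp6 had 117, 29 and 7, mt-Nd3 had 87, 16 and 12, and mt-Nd4l had none. The other 8 summed to 245315, 158685 and 118131 normalized counts, or 1.25%, 0.833% and 0.578% of reads. Of the windows of 50 bases, the length of a read, in the 5 low genes, 98.0% or more were also present in an annotated transcript of another gene, chiefly nuclear copies of mitochondrial DNA such as Gm28661, Gm10925 and Gm28437. In mt-Cytb, mt-Nd1, mt-Atp8 and mt-Nd6 the share was 0.0%. The authors kept uniquely aligned reads, which discards a read with equal matches in 2 places, and those copies that are rows of the table held at most 30 reads in any library. The values of these 5 genes are not read as levels here, and the part of the shared windows in them was not tested. mt-Co1 and mt-Nd4 had 51.1% and 62.2% of windows shared, so their levels are uncertain.

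**Figure D5:**
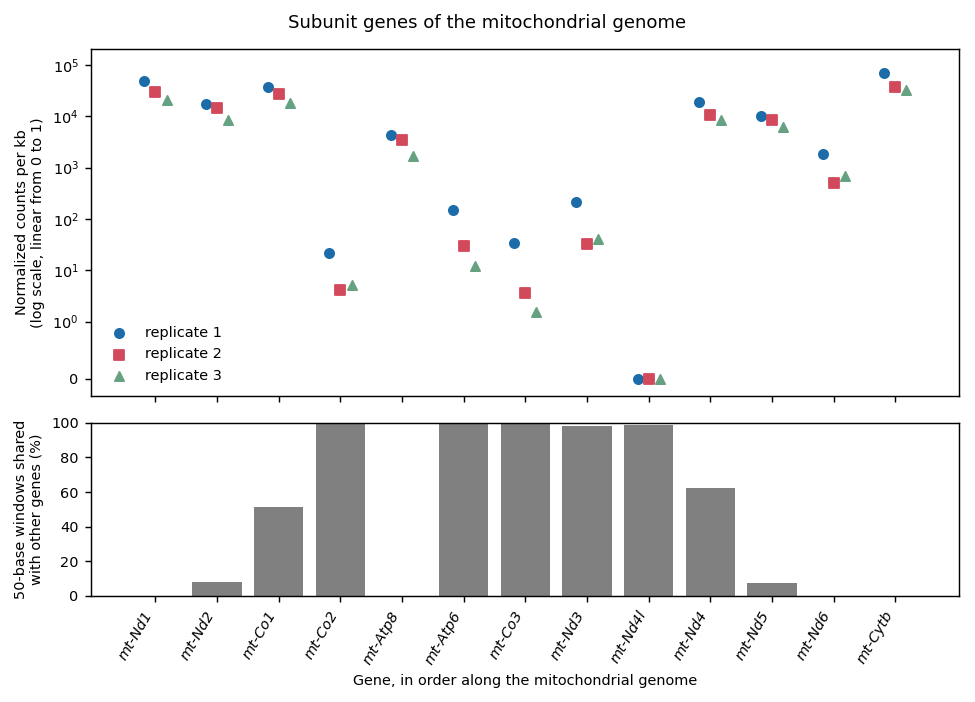
Top, normalized counts per kb (log scale, linear from 0 to 1) of the 13 subunit genes of the mitochondrial genome, in their order along it, in the 3 libraries. Bottom, percent of their windows of 50 bases also present in another annotated gene: the 5 genes near 0 are those with 98.0% or more shared, and mt-Co1 and mt-Nd4 have 51.1% and 62.2%.

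Among the nuclear genes of the set, 49 of 84 had no window of 50 bases in common with another gene, 16 had at least 10% and 11 at least 20%. Atp5l had the largest share, with 68.5%, followed by Uqcrb with 43.2%, Ndufb4 with 37.0%, Atp5h with 36.9%, Atp5g2 with 36.7% and Ndufs3 with 35.8%. Ndufs5, with 21.7%, and Cox7c, with 23.0%, also belong here. The levels of these genes are uncertain against the others, while a ratio between libraries compares the same positions. An exon of a gene on the opposite strand overlapped 26 of the 84, among them Atp5a1, Uqcrc2, Ndufa4l2 and Cox4i1. Whether the counting used strand is not given in the sources used here, so reads of such partners cannot be separated.

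Of the subunits and associated proteins that the name rule missed, Atpif1, the inhibitor of the ATP synthase, was at 2839, 1586 and 2483 normalized counts. The gene 2010107E04Rik, for a small ATP synthase protein, was at 2339, 1376 and 1957. Of 6 such genes, 4 were lower in replicate 2 than in replicate 1 (19.5% of all genes) and none was higher (19.6%), with a median log2 ratio of -0.69. Cyc1, the cytochrome c1 of complex III, was at 1263, 1806 and 1966, with replicate 1 the lowest as for Uqcrc1 and Uqcrc2.

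The wider mitochondrial lists are given by the same limit, which 19.5% of all genes passed for replicate 2 lower than replicate 1 and 19.6% for higher. Of 76 detected genes of the mitochondrial ribosome, which translates the mitochondrially encoded subunits, 24 were lower in replicate 2 than in replicate 1 and none higher, with a median log2 ratio of -0.42 and a median transcript of 1224 bases. Mrps21 was at 1411, 535 and 1133 and Mrpl54 at 1521, 683 and 1529, again with replicate 2 the lowest. Of 20 complex IV assembly factors 6 were lower, with Pet100 at 764, 254 and 472 and Cox17, which delivers copper, at 562, 212 and 220. Of 13 complex I assembly factors 1 was lower, Ndufaf2 at 529, 259 and 474, and Ndufaf3 was at 213, 149 and 171. For complex II assembly it was 1 of 2, Sdhaf1 at 330, 177 and 276, beside Sdhaf2 at 1039, 960 and 1013. None was lower of 6 factors of complex III assembly and 3 of ATP synthase assembly, of which Lyrm7 was at 72.9, 57.1 and 47.4, Uqcc3 at 468, 314 and 440, Tmem70 at 1838, 2022 and 1188 and Atpaf1 at 125, 171 and 180. The enzymes of the citric acid cycle, in the same compartment but with a median transcript of 2518 bases, had none of 16 lower and 2 higher in replicate 2 than in replicate 1, against 19.6% of all genes higher, with a median log2 ratio of 0.25. Of these, Idh3g was at 766, 1167 and 1179. Of 11 detected regulators of mitochondrial biogenesis none was called between replicates 1 and 2. Tfb1m was at 54.7, 46.5 and 79.4, Tfb2m at 129, 187 and 145, and Nrf1 at 430, 536 and 401. Ppargc1a, which encodes the coactivator PGC-1 alpha, was at 1.74, 2.82 and 1.19 normalized counts, at or near the limit for 0 reads.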

How the data were processed

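RNA-seq was analysed from 3 libraries of 1 condition, replicates 1 to 3. The authors made stranded mRNA libraries, aligned single-end reads to mm10 with TopHat2 2.0.13, kept unique alignments, counted reads per gene with HTSeq 0.5.3p3 and deposited a signal, the counts normalized by DESeq size factors. The annotation and the strand setting are not given in the sources used here. A further 3 columns of per-sample values matched no sample and were not used.

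Dividing each library by its smallest value gave whole reads for 100% of values (within 0.01 read). Differences used log2(normalized count + 1) and the 13154 genes whose mean reached 10. Only 1 condition was analysed here, so no test was made, and a call is a size limit of 1.5-fold. Intervals of ratios are exact (Clopper-Pearson, 95%) on recovered reads. TMM factors came from edgeR 4.0.16 (R 4.3.3), and Python 3.11.15 with pandas 2.3.3 did the rest. The counting of calls was tested on simulated data. Levels per kb used the median length of protein-coding transcripts in GENCODE M21 (GRCm38, the coordinates of mm10). Windows of 50 bases were compared over all annotated transcripts, leaving out genes at the same place.

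The genes and lists were chosen with earlier results of these data known. Named with values were, in each complex, the 3 highest and 2 lowest per kb, every paralog with a read, every gene with a range over 1.5-fold, the complex I, III and F1 cores, complex II, and the 2 genes of largest range in each list. The values of 2 genes under this rule are not reported here. Cyc1, Nrf1, Ppargc1a, the cell type markers and the mitochondrial genes other than mt-Co3 and mt-Atp6 were named after their values were seen. The length classes, the split at 1000 bases, the windows of 50 bases and the length from all exons were chosen after seeing the data. Alternatives tried were other scalings, pseudocounts, minimums, fold limits and lengths, an added binomial test, and each replicate left out.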

Additional observations from a re-analysis of the deposited data

How the results depend on the processing

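The main counts kept within 1.5 times of their values under TMM scaling, pseudocounts of 0.5 and 10 and an added exact binomial test on reads. With a 2-fold limit, replicate 2 was lower than replicate 1 for 14 genes and higher for 1, lower than replicate 3 for 4 and higher for 1, replicate 3 was lower than replicate 1 for 1 and higher for 0, and 17 had a range over the limit. Without a filter on the mean, replicate 2 was higher than replicate 1 for 5 and replicate 3 for 2. With a mean of at least 100, replicate 2 was higher than replicate 3 for 1. Scaling to equal library totals, which moves the median of all genes by 0.11 on the log2 scale for replicate 2 over 3, left 16 genes lower in replicate 2 than in replicate 3.

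With the median of the length class subtracted, replicate 2 was lower than replicate 1 for 9 genes and higher for 5, lower than replicate 3 for 6, and replicate 3 was lower than replicate 1 for 1 and higher for 2. Among genes called lower in replicate 2 than in replicate 1 before the subtraction, some log2 ratios turned in sign. They became 0.03 for Atp5h, 0.10 for Cox6b1, 0.04 for Ndufa1 and 0.03 for Ndufa11. For Ndufa4, Ndufa6, Ndufb9 and Uqcr10 they became 0.10, 0.12, 0.02 and 0.10. Genes inside the limit turned as well, for example Atp5g3 from -0.26 to 0.37 and Ndufc2 from -0.41 to 0.22. Here the subtraction itself moved the values.

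Leaving out a replicate gave 5 to 49 genes with a range over 1.5-fold, 30 of them without replicate 1, 5 without replicate 2 and 49 without replicate 3, so this count rests on replicate 2. The median SD was 0.20 without replicate 2 and 0.50 without replicate 3. Family shares moved with the length used: without division by length Atp5g1 took 21.4% and Atp5g3 69.6%, and with all exons 10.5% and 76.6%.

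No paired analysis was possible because the libraries form 1 group. A few reads limit Cox4i2, Cox6a2 and Cox7a1. At this depth counting error is small for the rest: an exact binomial test on reads (Benjamini-Hochberg adjusted, counting error only) called 75 of 79 genes between replicates 1 and 2, and 9683 of all 13154, so it cannot stand for biological difference.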
